A study of Mus musculus with 6 samples.

Results

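Chemokines are small secreted proteins that steer the movement of cells, and they act through G-protein-coupled receptors that carry the matching family names. The genes described here are all those on the array whose symbol is that of a Ccl, Cxcl, Cx3cl1 or Xcl1 ligand, or of a Ccr, Cxcr, Cx3cr1, Xcr1 or Ackr receptor, chosen by symbol alone. They number 55 of the 22180 genes measured, with 34 ligands and 21 receptors. Each gene is represented by its probe set with 1 gene symbol and the highest mean over the 6 arrays.

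The arrays measured total RNA from 6 samples of mouse cells, with 1 array per sample and 1 sample per group. The groups were mouse embryonic fibroblasts without induction (MEF), iPV cells, which are such fibroblasts induced to become parvalbumin (PV) neurons, after 3, 7 or 14 days of induction, iPV cells of day 14 that were sorted for green fluorescent protein (GFP), and a sample labelled endogenous PV neurons, whose array is called the endogenous-labelled array here. All 6 samples carry the same labels for strain (C57BL/6), genotype (PV-GFP transgenic) and age (embryos of 13.5 days), and one text on culturing fibroblasts and infecting them with adenovirus is given for all of them, MEF and the endogenous-labelled sample included. The labels do not say which genes the adenovirus carried. PV neurons are fast-spiking inhibitory neurons, and the study asked how expression profiles develop over successive stages of their induction. Because no group had a second array, the differences have no replicate check, no test was possible, and each describes only the arrays compared.

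Values are log2 intensities. A floor was set at 5.01, the median of all probe sets other than controls, and lower values were raised to it before differences were taken, which turns the fold of any gene with 1 value under the floor into a minimum, given with the words "at least". Differences of 1 log2 unit or more, which is 2-fold, were counted. For scale, the technical spread, taken between probe sets of the same gene, lay between 0.27 and 0.50 log2 units over the 8 comparisons, and it leaves out variation between cultures and animals. On all 6 arrays 10 of 10 fibroblast markers were above the floor, the endogenous-labelled array included. Of 10 markers of parvalbumin interneurons, 3 to 5 were at or above the floor on each array, with 5 on the endogenous-labelled array and 4 in MEF. Pvalb, which encodes parvalbumin, lay between 5.23 in MEF and 6.29 in sorted cells, with 5.48 on the endogenous-labelled array, while Gad2, a GABA-synthesis enzyme of inhibitory neurons, was below the floor on every array, at most 4.93. Of 12 pan-neuronal markers, 7 reached the floor in MEF, 8 on the endogenous-labelled array and 9 or 10 on the other 4 arrays. Macrophage and microglia markers at or above the floor numbered 15 of 20 in MEF, 9, 12 and 14 at days 3, 7 and 14, 6 in the sorted cells and 16 on the endogenous-labelled array. In bulk samples like these, fewer cells of a type and less RNA per cell cannot be told apart.

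Fibroblasts are a well-known source of chemokines. CC chemokines such as Ccl2 draw monocytes, CXC chemokines with the amino acids ELR before their first cysteines, such as Cxcl1 and Cxcl5, draw neutrophils, and Cxcl9, Cxcl10 and Cxcl11 are induced by interferon and draw activated T cells. Transcription of many inflammatory members is controlled by NF-kappaB, a factor activated by cytokines and microbial products. In brain, Cxcl12 and its receptor Cxcr4 guide migrating interneurons, and Cx3cl1 on neurons signals to Cx3cr1 on microglia.

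Ligands and receptors differed in how many were measured above the floor. Of the 34 ligands, 27 were at or above the floor on at least 1 array, against 5 of the 21 receptors. Over the family that made 32 of 55 (58.2%), beside 64.5% of all genes, and 22 members were above the floor on all 6 arrays. A 2-fold difference in at least 1 of the 8 comparisons was seen for 19 members, 18 ligands and 1 receptor, or 34.5% of the family beside 9.68% of all genes. The 23 members below the floor on every array had values between 2.32 and 4.98. They were the ligands Ccl1, Ccl17, Ccl22, Ccl24, Ccl26, Ccl28 and Xcl1 and the receptors Ccr1, Ccr2, Ccr3, Ccr4, Ccr6, Ccr7, Ccr8, Ccr9, Ccr10, Cxcr2, Cxcr3, Cxcr5, Cxcr6, Xcr1, Ackr1 and Ackr4.

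**Figure D1:**
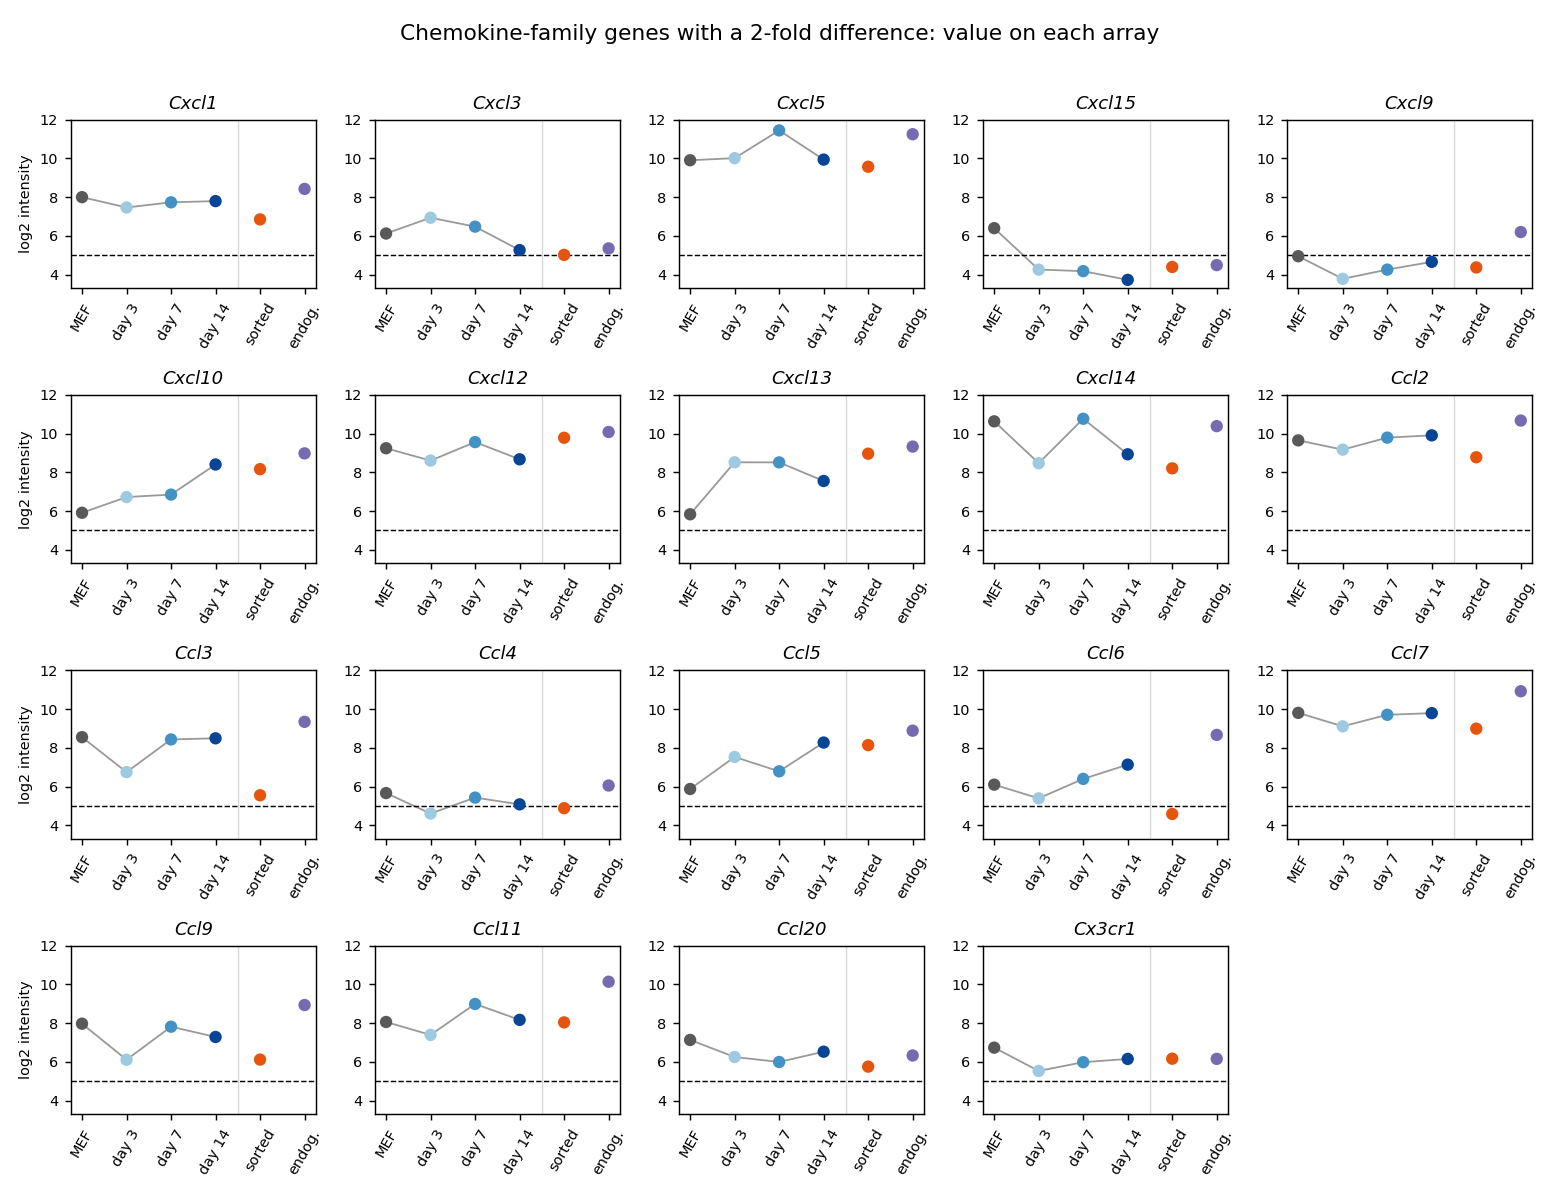
Log2 intensity (vertical axis) of the 19 chemokine-family genes with a 2-fold difference in at least 1 comparison, on each of the 6 arrays (horizontal axis; endog. is the endogenous-labelled array). Each point is 1 array, the line joins MEF and days 3, 7 and 14, and the dashed line is the floor of 5.01. Cxcl10 and Ccl5 are higher on all 5 other arrays than in MEF, and Ccl3 is lowest in sorted cells at 5.55.

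Among the ELR ligands, which attract neutrophils, Cxcl1 and Cxcl5 were well above the floor on every array. Cxcl3 was highest at day 3 and Cxcl15 in MEF. Cxcl5 had 9.90 in MEF, 10.01, 11.44 and 9.93 at days 3, 7 and 14, 9.56 in the sorted cells and 11.24 on the endogenous-labelled array. The day 7 and endogenous-labelled arrays stood above the other 4 arrays, by 1.43 on the log2 scale for day 7 against day 3 and by 1.34 for the endogenous-labelled array against MEF. Cxcl1 had 7.99 in MEF, 7.46, 7.73 and 7.79 at days 3, 7 and 14, 6.85 in the sorted cells and 8.42 on the endogenous-labelled array. Sorted cells were lowest, 2.21-fold below MEF and 2.97-fold below the endogenous-labelled array. Cxcl3 had 6.12 in MEF, 6.93, 6.47 and 5.26 at days 3, 7 and 14, 5.01 in the sorted cells and 5.35 on the endogenous-labelled array. Its highest value was at day 3, and the day 14 array was 2.32-fold below the day 7 array. Cxcl15, known from lung epithelium, had 6.39 in MEF and was below the floor on the other 5 arrays, between 3.72 at day 14 and 4.48 on the endogenous-labelled array, at least 2.60-fold lower than MEF on each. Cxcl2 stayed near the floor, between 4.39 in sorted cells and 5.21 at day 7.

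Cxcl3, Cxcl15, Cxcl1 and Cxcl2 lie next to one another in the RefSeq gene order. The 250 bases before the start of Cxcl1, Cxcl2 and Cxcl3 are shown because these adjacent genes hold the same NF-kappaB letters while their values on the arrays differ. Sequences are from RefSeq, build GRCm38.p6, on the plus strand at chr5:90890995-90891244 (Cxcl1), chr5:90903649-90903898 (Cxcl2) and chr5:90785851-90786100 (Cxcl3). Capitals mark matches to the NF-kappaB consensus, searched on both strands, and each run of capitals is a match on each strand that overlap in all but 1 base.
Cxcl1: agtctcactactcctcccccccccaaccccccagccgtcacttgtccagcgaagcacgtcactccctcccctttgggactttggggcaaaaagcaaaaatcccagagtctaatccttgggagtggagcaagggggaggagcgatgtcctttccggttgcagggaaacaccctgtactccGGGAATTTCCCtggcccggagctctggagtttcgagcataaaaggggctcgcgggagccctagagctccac
Cxcl2: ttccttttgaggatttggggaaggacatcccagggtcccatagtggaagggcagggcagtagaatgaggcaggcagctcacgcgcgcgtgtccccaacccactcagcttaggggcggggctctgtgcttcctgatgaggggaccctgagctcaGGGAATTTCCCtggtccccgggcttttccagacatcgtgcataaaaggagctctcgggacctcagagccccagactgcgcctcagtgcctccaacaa
Cxcl3: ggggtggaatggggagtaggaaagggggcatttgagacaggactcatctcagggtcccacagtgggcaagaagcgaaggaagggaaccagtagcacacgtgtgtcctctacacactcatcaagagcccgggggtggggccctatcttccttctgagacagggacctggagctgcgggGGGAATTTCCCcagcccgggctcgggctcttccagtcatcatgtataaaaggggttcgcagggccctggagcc
GGGAATTTCC on the sense strand starts 71 bases before the gene start in Cxcl1, 97 bases before it in Cxcl2 and 73 bases before it in Cxcl3. Of the 55 members, 41 had a promoter entry, and 9 of these (22%) held a match to the consensus in the 250 bases, namely Ackr2, Ccl20, Ccl9, Ccr3, Ccr6, Cxcl1, Cxcl10, Cxcl2 and Cxcl3, beside 4.46% of the 27025 genes with an entry. The sequence TATAAA was found on either strand in 13 of the 41 (31.7%), beside 14.3% of all genes. A match is a description of the letters, and binding was not measured.

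The interferon-induced ligands were led by Cxcl10, whose receptor is Cxcr3. The CC ligand Ccl5 was likewise lowest in MEF and highest on the endogenous-labelled array, but it fell from day 3 to day 7, where Cxcl10 did not. Cxcl10 had 5.92 in MEF, 6.73, 6.86 and 8.41 at days 3, 7 and 14, 8.17 in the sorted cells and 8.98 on the endogenous-labelled array. Its differences from MEF were 2.49 at day 14, 2.25 in the sorted cells and 3.07 on the endogenous-labelled array. Ccl5, which draws T cells and monocytes, had 5.88 in MEF, 7.53, 6.79 and 8.27 at days 3, 7 and 14, 8.14 in the sorted cells and 8.88 on the endogenous-labelled array. MEF was lowest, and the fold over MEF was 3.14 at day 3, 5.26 at day 14, 4.80 in the sorted cells and 8.05 on the endogenous-labelled array. Cxcl9 was below the floor on 5 arrays, between 3.78 and 4.94, and had 6.19 on the endogenous-labelled array, at least 2.27-fold above MEF. Cxcl11 was above the floor at day 7 with 5.02 and at day 14 with 5.73, and lay between 4.13 and 4.85 on the other 4 arrays. Cxcr3, the receptor of all 3 of these CXC ligands, was below the floor throughout, between 4.24 and 4.98.

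The 250 bases before the start of Cxcl10 and Cxcl14 are shown next. Of the 41 members with a promoter entry, only these 2 hold the core of the interferon-stimulated response element (GAAA, any 2 bases, GAAA, searched on both strands). The values of the 2 genes ran differently. They are from RefSeq, build GRCm38.p6, minus strand, at chr5:92348890-92349139 (Cxcl10) and chr13:56296552-56296801 (Cxcl14). Capitals mark that core and matches to the NF-kappaB consensus.
Cxcl10: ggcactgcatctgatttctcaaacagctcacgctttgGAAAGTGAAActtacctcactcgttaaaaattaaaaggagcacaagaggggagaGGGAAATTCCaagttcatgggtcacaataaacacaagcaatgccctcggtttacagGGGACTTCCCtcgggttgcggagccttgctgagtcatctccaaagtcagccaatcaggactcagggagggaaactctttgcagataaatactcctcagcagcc
Cxcl14: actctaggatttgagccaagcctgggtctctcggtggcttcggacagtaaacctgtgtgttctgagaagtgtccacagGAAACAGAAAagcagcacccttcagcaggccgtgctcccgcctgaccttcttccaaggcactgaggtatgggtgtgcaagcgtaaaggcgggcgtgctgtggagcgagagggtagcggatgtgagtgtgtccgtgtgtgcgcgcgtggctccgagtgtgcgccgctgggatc
In Cxcl10 the core reads GAAAGTGAAA and starts 213 bases before the gene start, and the NF-kappaB matches GGGAAATTCC and GGGACTTCCC start 159 and 103 bases before it. In Cxcl14 the core reads GAAACAGAAA and starts 172 bases before the gene start, with no NF-kappaB match in these letters. The core was present in 2 of the 41 members with an entry (4.88%), beside 3.46% of all genes. Ccl5 was among the members without an entry, so its promoter was not searched.

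Interferon-response genes were higher on the same arrays as Cxcl10 and Ccl5. Cxcl9 and Cxcl11 ran differently, with Cxcl9 above the floor only on the endogenous-labelled array and Cxcl11 only at days 7 and 14. Of 15 genes of a fixed interferon-response list, 5 were at least 2-fold higher than MEF at day 3, 8 at day 14, 7 in the sorted cells and 11 on the endogenous-labelled array, and 0 were lower. Irf7, a regulator of interferon genes, differed from MEF by 1.02 at day 3, 2.73 at day 14, 1.77 in the sorted cells and 2.97 on the endogenous-labelled array. Usp18, an interferon-induced protease, differed by 1.73, 2.61, 2.23 and 2.64 in the same order. Between sorted and unsorted cells at day 14 no gene of this list differed 2-fold, its median was -0.52 over 14 genes above the floor, and Cxcl10 and Ccl5 differed by -0.24 and -0.13. The part of interferon signalling in the chemokine values was not tested.

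**Figure D2:**
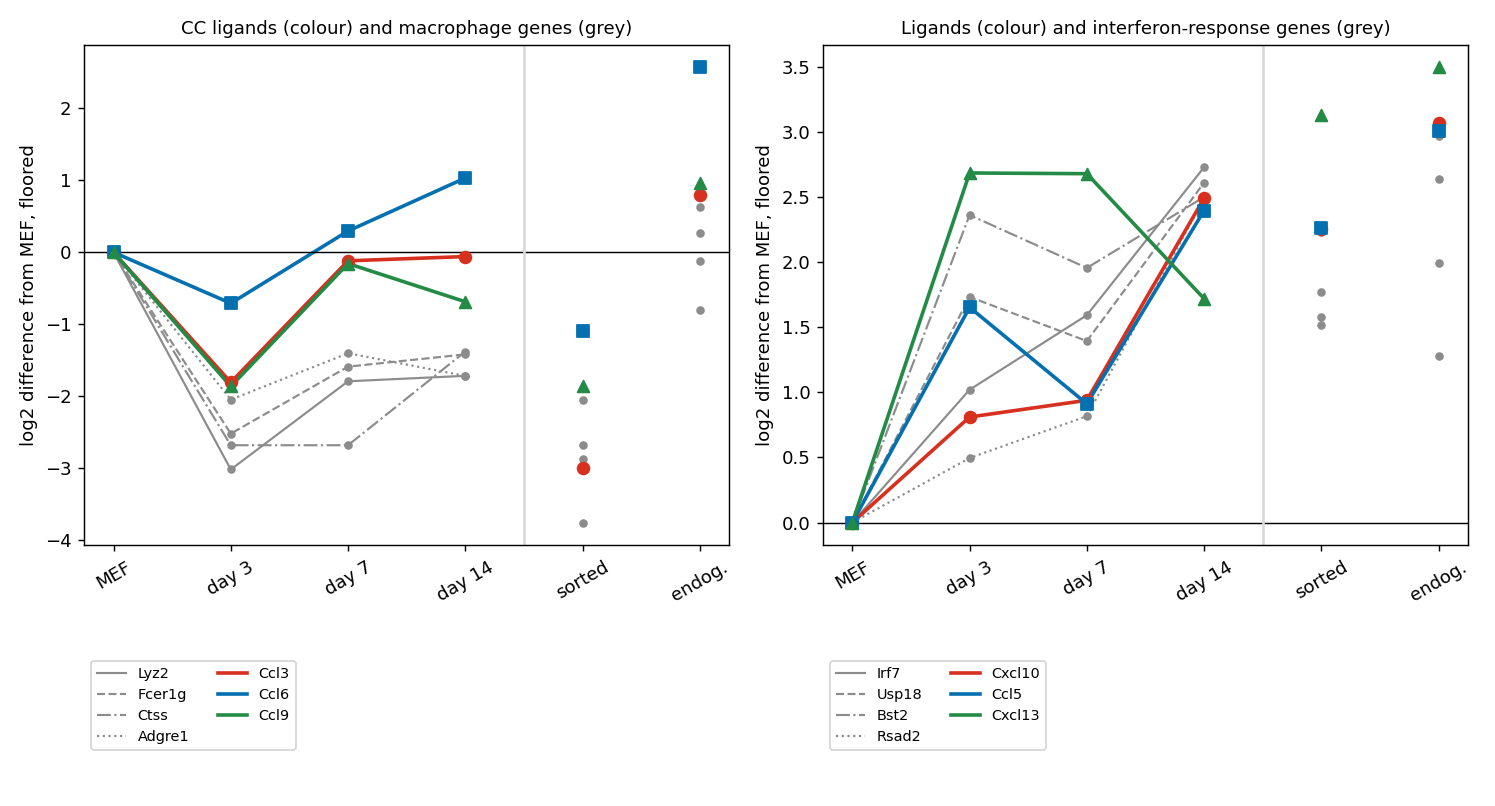
Log2 difference from MEF (vertical axis), with values below the floor raised to it, on each array (horizontal axis; endog. is the endogenous-labelled array). The left panel sets Ccl3, Ccl6 and Ccl9 beside the macrophage genes Lyz2, Fcer1g, Ctss and Adgre1 in grey, and the right panel sets Cxcl10, Ccl5 and Cxcl13 beside the interferon-response genes Irf7, Usp18, Bst2 and Rsad2 in grey. Lines join MEF and days 3, 7 and 14. The grey genes were picked for large differences from lists of 20 macrophage and 15 interferon-response genes, and not every listed gene followed them. Fcgr3 of the macrophage list differed from MEF by 0.28 at day 3 and 0.20 in sorted cells. Irf1 of the interferon-response list differed by -0.40 at day 14 and -0.32 in sorted cells. Every gene on the left except Ccl6 is lower than MEF on the arrays of all 4 induced samples, though some points are close to MEF. These are Ccl3 at days 7 and 14 (8.43 and 8.49 against 8.55) and Ccl9 at day 7 (7.82 against 7.98). Every gene on the right is higher than MEF on all 5 other arrays.

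Cxcl13, Cxcl14 and Cxcl12 had the other wide ranges among CXC ligands. Cxcl13, which draws B cells through Cxcr5, had 5.84 in MEF, 8.52, 8.52 and 7.56 at days 3, 7 and 14, 8.97 in the sorted cells and 9.33 on the endogenous-labelled array. MEF was the lowest by a wide margin, and the fold over MEF was 6.43 at day 3, 3.29 at day 14, 8.74 in the sorted cells and 11.3 on the endogenous-labelled array. Sorted cells were 2.66-fold above unsorted day 14 cells. Cxcl14, an epithelial and fibroblast chemokine, had 10.64 in MEF, 8.48, 10.77 and 8.94 at days 3, 7 and 14, 8.21 in the sorted cells and 10.39 on the endogenous-labelled array. The day 7 array was highest, 4.90-fold above day 3 and 3.56-fold above day 14, and the sorted array was lowest. Cxcl12 had 9.25 in MEF, 8.61, 9.57 and 8.68 at days 3, 7 and 14, 9.79 in the sorted cells and 10.09 on the endogenous-labelled array. The sorted array was 2.16-fold above the unsorted day 14 array, and no other comparison of Cxcl12 reached 2-fold. Cxcl16, a membrane-bound ligand of Cxcr6, lay between 6.24 at day 3 and 7.39 on the endogenous-labelled array. Cx3cl1, the neuronal ligand of Cx3cr1, lay between 5.52 in MEF and 5.89 on the endogenous-labelled array, and Cxcl17 between 4.72 and 5.35, with no 2-fold difference for either.

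The monocyte and eosinophil attractants Ccl2, Ccl7, Ccl11, Ccl12 and Ccl8 lie next to one another in this order in RefSeq, followed by Ccl1. Ccl2 had 9.65 in MEF, 9.18, 9.80 and 9.91 at days 3, 7 and 14, 8.78 in the sorted cells and 10.68 on the endogenous-labelled array. Ccl7 had 9.80 in MEF, 9.11, 9.71 and 9.79 at days 3, 7 and 14, 8.99 in the sorted cells and 10.92 on the endogenous-labelled array. For both genes the sorted array was lowest and the endogenous-labelled array highest, with sorted cells 3.72-fold and 3.81-fold lower than it. Ccl2 was also 2.19-fold lower in sorted than in unsorted day 14 cells, and Ccl7 was 1.74-fold lower. Ccl11, the eosinophil attractant eotaxin, had 8.06 in MEF, 7.40, 8.99 and 8.17 at days 3, 7 and 14, 8.04 in the sorted cells and 10.14 on the endogenous-labelled array. The endogenous-labelled array was 4.22-fold above MEF, and the sorted array differed from MEF by -0.02 on the log2 scale. Ccl12 was above the floor only on the endogenous-labelled array, at 5.48, and Ccl8 only in MEF, at 5.95. Ccr2, the receptor of Ccl2 and Ccl7, lay between 3.42 and 3.85, and Ccr3, the receptor of Ccl11, between 2.32 and 2.94.

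Ccl5, Ccl9, Ccl6, Ccl3 and Ccl4 form a second run of adjacent genes, and Ccl5 did not run with its neighbours. Ccl3, a macrophage inflammatory protein, had 8.55 in MEF, 6.75, 8.43 and 8.49 at days 3, 7 and 14, 5.55 in the sorted cells and 9.34 on the endogenous-labelled array. Ccl9, made largely by myeloid cells, had 7.98 in MEF, 6.12, 7.82 and 7.29 at days 3, 7 and 14, 6.12 in the sorted cells and 8.94 on the endogenous-labelled array. Both genes were low at day 3 and in sorted cells, and Ccl3 in sorted cells was 7.67-fold below unsorted day 14 cells and 13.8-fold below the endogenous-labelled array. Ccl6, another myeloid ligand, had 6.10 in MEF, 5.39, 6.40 and 7.13 at days 3, 7 and 14, 4.59 in the sorted cells and 8.67 on the endogenous-labelled array. The sorted value lay below the floor, at least 4.35-fold below unsorted cells and at least 12.6-fold below the endogenous-labelled array. Ccl4, whose sequence and use are close to those of Ccl3, had 5.66 in MEF, 4.61, 5.43 and 5.08 at days 3, 7 and 14, 4.88 in the sorted cells and 6.05 on the endogenous-labelled array. Its lowest values were again those of day 3 and of sorted cells, both below the floor. Ccl5 on these 2 arrays was instead above MEF, as given earlier.

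Macrophage genes were low on the same arrays as Ccl3, Ccl6 and Ccl9. The summed signal of the 20 macrophage and microglia markers, as log2, was 11.24 in MEF, 9.41, 10.09 and 10.15 at days 3, 7 and 14, 9.38 in the sorted cells and 11.52 on the endogenous-labelled array. At day 14 this signal was below MEF, whereas Ccl3 had 8.49 against 8.55 in MEF and Ccl6 had 7.13 against 6.10. Ccl9 was lower than MEF there, at 7.29 against 7.98. Of the 20 markers, 8 were at least 2-fold lower at day 3 than in MEF, 5 at day 14 and 7 in sorted cells, and 3 were higher on the endogenous-labelled array. Lower values at day 3 were not limited to macrophage genes. Of 10 fibroblast markers, 4 were at least 2-fold lower than MEF at day 3, 1 at day 14 and 2 in sorted cells. Lyz2, which encodes lysozyme, had 9.78 in MEF, 6.76, 7.99 and 8.06 at days 3, 7 and 14, 6.03 in the sorted cells and 10.05 on the endogenous-labelled array. Ptprc, the pan-leukocyte antigen, was below the floor on all 6 arrays, at most 4.85, and Csf1r, a receptor of macrophages, lay between 5.12 and 5.78. The part of macrophage RNA in the chemokine values was not tested. Of 9 neutrophil markers, 2 were above the floor on the endogenous-labelled array and none on the others. These were Csf3r at 5.02 and Elane at 5.05, both close to the floor of 5.01. Of 5 mast cell markers, 0 were above the floor on any array. Of 9 T and NK cell markers only Nkg7 was above it.

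The other CC ligands were few. Ccl20, which draws cells carrying Ccr6, had 7.14 in MEF, 6.26, 6.00 and 6.53 at days 3, 7 and 14, 5.76 in the sorted cells and 6.34 on the endogenous-labelled array. MEF was highest, and the sorted array was 2.60-fold lower than MEF. Day 7 was second lowest, and day 7 against MEF is not among the 8 comparisons. Ccl25, a thymus and gut ligand, lay between 6.26 in MEF and 6.65 at day 14. Ccl27a, a skin ligand with near-identical gene copies, had a pair of probe sets that disagreed: in sorted cells the brighter gave 6.68, its highest value, and the other gave 4.78, its lowest. Another 33 probe sets carry a chemokine name among several symbols and were left out, so Ccl19, Ccl21a and their copies are not analysed here. Their values lay between 3.93 and 9.09, and 1 of them ranged 2-fold or more over the 6 arrays, by 2.02 on the log2 scale.

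Receptors stayed low. All 9 CC receptors measured were below the floor on every array, between 2.32 for Ccr3 and 4.85 for Ccr7 and Ccr10. Cx3cr1, a receptor known from microglia and monocytes, had 6.74 in MEF, 5.54, 5.99 and 6.16 at days 3, 7 and 14, 6.17 in the sorted cells and 6.16 on the endogenous-labelled array. The MEF value was highest, 2.30-fold above day 3, the only 2-fold difference of a receptor in the 8 comparisons. Cxcr4, the receptor of Cxcl12, lay between 5.56 at day 3 and 6.06 on the endogenous-labelled array, and Cxcr1 crossed the floor at days 7 and 14 with at most 5.06. Of the atypical receptors, which take up chemokines without G-protein signalling, Ackr2 lay between 5.27 and 5.75 and Ackr3, which takes up Cxcl12, between 5.81 and 6.30.

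Counted over the whole family, the endogenous-labelled array stood out on the high side and the sorted array on the low side. Of the 32 members that reached the floor somewhere, 18 (56.3%) had their highest value on the endogenous-labelled array, beside 13.6% of 14295 such genes. Sorted cells held the lowest value of 14 of them (43.8%), beside 14.1% of such genes. Day 3 held the lowest of 9 (28.1%), beside 19.3% of such genes. Values were ranked without the floor, so some of these lowest values lay below it, such as Ccl6 at 4.59 and Ccl8 at 4.30 in sorted cells. The order of values below the floor carries little information. Against MEF, the endogenous-labelled array had 9 members at least 2-fold higher (background 2.13%) and 1 lower (background 0.969%), where background is the share of all 22180 genes past the same threshold. Sorted cells had 3 higher (background 3.67%) and 8 lower (background 1.64%) than MEF. Of the 9, Ccl2 was at 2.03-fold and lost its call after quantile normalization (0.94). Between these arrays, 11 members were lower in sorted cells (background 1.14%) and 0 higher (background 1.36%). The comparisons share the MEF array or others, so their counts are not independent.

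**Figure D3:**
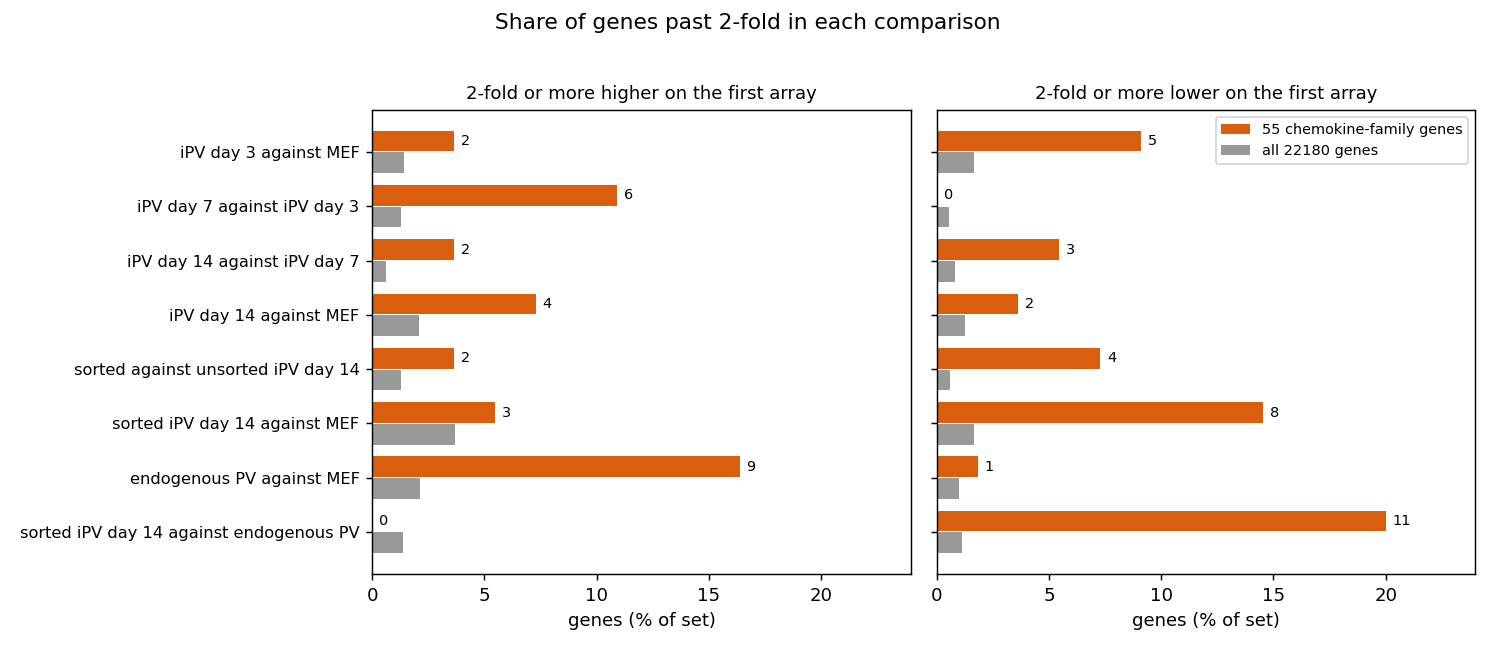
Share of the 55 chemokine-family genes (orange, with the number of genes) and of all 22180 genes (grey) that were 2-fold or more higher (left panel) or lower (right panel) on the first-named array of each comparison; the horizontal axis is percent of the set. The longest orange bars are 11 genes lower in sorted cells than on the endogenous-labelled array and 9 genes higher on that array than in MEF.

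Over the time course most of the 2-fold differences at day 3 were to the low side and all of those from day 3 to day 7 were to the high side. At day 3 the 5 lower members were Ccl3, Ccl9, Cx3cr1, Cxcl14 and Cxcl15 (background 1.64%) and the 2 higher were Ccl5 and Cxcl13 (background 1.43%). From day 3 to day 7 the 6 higher members were Ccl3, Ccl6, Ccl9, Ccl11, Cxcl5 and Cxcl14 (background 1.3%), with 0 lower (background 0.528%). From day 7 to day 14 Ccl5 and Cxcl10 were higher (background 0.604%) and Cxcl3, Cxcl5 and Cxcl14 lower (background 0.825%). Day 14 against MEF gave Ccl5, Ccl6, Cxcl10 and Cxcl13 higher (background 2.1%) and Cxcl14 and Cxcl15 lower (background 1.26%). In sorted against unsorted day 14 cells, Cxcl12 and Cxcl13 were higher (background 1.26%) and Ccl2, Ccl3, Ccl6 and Ccl9 lower (background 0.609%). The 2-fold calls of Ccl6 at day 14 against MEF (0.96 under another scaling) and at day 7 against day 3 (0.99) did not hold under every scaling. The median log2 difference of the members above the floor on either array was -0.53 at day 3, -0.06 at day 14, -0.57 in the sorted cells and 0.40 on the endogenous-labelled array, each against MEF. Over all genes these medians were 0.02, 0.07, 0.08 and 0.04. The median of members was 0.23 from day 3 to day 7 and -0.12 from day 7 to day 14, beside 0.00 and 0.05 over all genes.

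**Figure D4:**
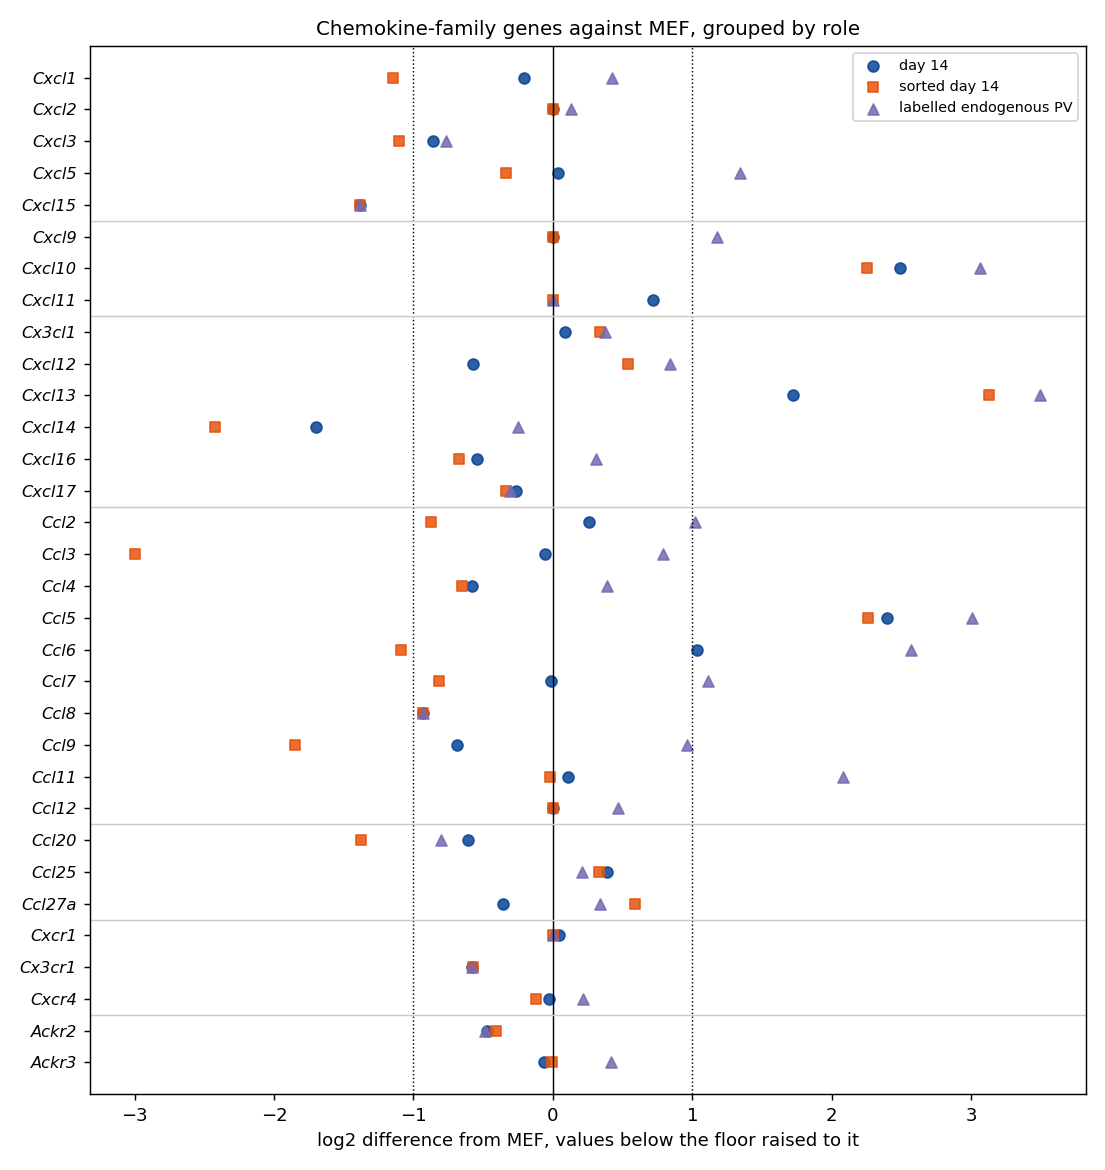
Log2 difference from MEF (horizontal axis), with values below the floor raised to it, for the 32 chemokine-family genes above the floor on at least 1 array (vertical axis, grey lines separate ELR ligands, interferon-induced ligands, other CXC and CX3C ligands, inflammatory CC ligands, other CC ligands, receptors and atypical receptors). Circles are day 14, squares sorted day 14 cells and triangles the endogenous-labelled array, and dotted lines mark 2-fold. Triangles of Ccl2, Ccl7 and Ccl11 lie beyond the 2-fold line while their squares do not lie above 0.

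Genes that induce, carry or read chemokine signals were counted from fixed lists. Of all genes, 1.43% were higher and 1.64% lower than MEF at day 3, and 2.1% and 1.26% at day 14. In sorted cells these shares were 3.67% and 1.64%, and on the endogenous-labelled array 2.13% and 0.969%. They are the background for every list counted against MEF, the interferon-response and macrophage lists included. In a list of 15 NF-kappaB and cytokine target genes, 3 were higher and 1 lower than MEF at day 3, 4 and 0 at day 14, 4 and 1 in the sorted cells and 5 and 1 on the endogenous-labelled array. Saa3, an acute-phase protein, differed from MEF by 2.42, 2.57, 2.33 and 3.25 on these arrays, and Il6, a cytokine of activated fibroblasts, by 2.04, 2.27, 1.14 and 1.69. Of 13 genes of the NF-kappaB pathway itself, 0 differed 2-fold at day 3, 1 was higher at day 14, 2 in the sorted cells and 1 on the endogenous-labelled array, with 0 lower. Tnfaip3, a feedback inhibitor of NF-kappaB, was higher by 1.98 at day 14, 1.28 in the sorted cells and 1.40 on the endogenous-labelled array. Among 14 upstream cytokine and pattern receptors, 0 differed 2-fold at day 3, 2 were higher at day 14, 2 in the sorted cells and 4 on the endogenous-labelled array, and 1, Il6st, was lower in sorted cells. Tlr3, which senses double-stranded RNA, was higher by 1.47 on the endogenous-labelled array.

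In the list of 8 chemokine-cutting proteases and heparan sulfate carriers, Dpp4, a protease that trims the ends of several chemokines, was below the floor in MEF and higher than MEF by at least 2.22 at day 3, at least 2.88 at day 14, at least 2.22 in the sorted cells and at least 2.55 on the endogenous-labelled array, on the log2 scale. Mmp9, a gelatinase, was higher by 2.29 in the sorted cells and 2.67 on the endogenous-labelled array, and Mmp12, a macrophage elastase, differed from MEF by -1.82 at day 3, -1.06 at day 14 and -1.57 in sorted cells. Of 18 genes of chemokine receptor signalling, 0 were higher and 1 lower at day 3, 1 and 2 at day 14, 1 and 2 in the sorted cells and 0 and 0 on the endogenous-labelled array. Rac2, a GTPase of blood cells, differed from MEF by -1.62 at day 3, -1.04 at day 14 and -1.87 in sorted cells, and Elmo1, an adaptor for cell migration, by -1.23 at day 14 and -1.64 in sorted cells. Of 5 chemokine-family genes with other symbols, among them Pf4 and Ppbp, 0 differed 2-fold in any comparison.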

How the data were processed

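The authors deposited 1 table of log2 values for 41345 probe sets on 6 arrays, and per the labels' protocols biotin-labelled RNA was made from 6 µg of total RNA per sample. Of software, the submitters' processing notes name Affymetrix Expression Console. How probe values were summarised and normalized is not given in the sources used here. That the deposited values are log2 intensities was inferred from their range. With 1 array in each group, precision is limited by the number of arrays.

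The 5333 probe sets numbered below the first annotated one were treated as controls. Of the rest, 23521 had 1 gene symbol, 1814 several and 10677 none. Names came from the platform annotation (23328 identifiers matched to RefSeq GRCm38.p6, 0 symbols changed). No detection calls were used. For the technical spread, differences from a gene's 2 brightest probe sets were subtracted, and the standard deviation over 327 to 403 genes was divided by the root of 2. The 8 comparisons and their counting were checked on simulated data.

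The named genes were every member of the family, and up to 4 genes of each fixed list by size of difference, of which the text gives a selection. Lyz2, Fcer1g, Ctss, Adgre1, Ptprc, Csf1r, Gad2, Pvalb, Nkg7, Csf3r and Elane were added after their values were seen. Members and lists were chosen with earlier results of these data known. The 5 alternatives were quantile normalization, centring on 16 housekeeping genes, no floor, a floor at percentile 75 (6.58) and the mean of probe sets. Python 3.11.15, numpy 2.4.6, pandas 2.3.3 and matplotlib 3.10.9 were used.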

Additional observations from a re-analysis of the deposited data

How the results depend on the processing

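No paired analysis was possible because each group had 1 array. Counts of members past 2-fold stayed within 1.5 times under quantile normalization, housekeeping centring and the mean of probe sets in all 8 comparisons. Without a floor, 9 members were lower at day 3 than in MEF (background 2.47%) and 3 on the endogenous-labelled array (background 1.79%), each background under the same setting. With the floor at percentile 75, day 3 against MEF gave 1 higher (background 0.744%) and 3 lower (background 0.825%). Day 14 against MEF gave 2 higher (background 1.22%) and 1 lower (background 0.631%). Sorted against unsorted cells gave 2 lower (background 0.338%). Against MEF, 4 were lower in sorted cells (background 0.911%) and 0 on the endogenous-labelled array (background 0.451%). Of 62 differences of single members past 2-fold, 0 changed sign under any of the 5 alternatives. All 62 stayed past 2-fold with the mean of probe sets and without a floor, 60 did under quantile normalization and 60 under housekeeping centring, and 44 did with the higher floor, which raises dim values by construction. Those lost under a scaling were Ccl2 on the endogenous-labelled array against MEF (0.94 after quantile normalization), Ccl6 at day 14 against MEF (0.96 under both scalings) and Ccl6 at day 7 against day 3 (0.99 after centring). The 18 lost with the higher floor included Cx3cr1 at day 3 (-0.16), Ccl5 at day 3 (0.94) and Cxcl13 at day 14 (0.97), each against MEF. All differences of Cxcl9 and Cxcl15 past 2-fold were lost with it too. Over all genes, day 14 against MEF gave 466 higher and 279 lower, and 376 and 340 after centring. Sorted cells against MEF gave 814 and 364, and 636 and 466 after quantile normalization. Sorted cells against the endogenous-labelled array gave 302 and 253, and 228 and 302 after centring.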
